A study of Mus musculus with 6 samples.

Results

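The genes that set the brake and the accelerator on cyclin-dependent kinases were examined in a mouse cell line labelled CAF, a usual abbreviation for cancer-associated fibroblast, in control and MAOA-KO libraries. They are the 7 CDK inhibitor genes Cdkn1a, Cdkn1b, Cdkn1c, Cdkn2a, Cdkn2b, Cdkn2c and Cdkn2d and the 3 D-type cyclin genes Ccnd1, Ccnd2 and Ccnd3. They were chosen by gene symbol, and all 10 were found among the 15836 rows of the deposited count table. RNA was sequenced in 6 libraries, 3 per group. The 3 control libraries carry the genotype label wt and the treatment label control. The 3 MAOA-KO libraries carry a MAOA knockout label, while another of their label fields speaks of knockdown. Both groups share the cell line label CAF and the tissue label pancreatic tumor. How the gene was disrupted, and whether the knockout line is a single clone, is not given in the sources used here. No label says whether replicates are separate cultures, so the p-values measure the spread between these libraries, which may be technical.

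Of the 10 genes, 6 were lower in the MAOA-KO libraries, 2 were higher, and 2 did not pass the test. Among the inhibitors, Cdkn1a fell 2.88-fold and Cdkn2a, Cdkn2b, Cdkn2c and Cdkn2d fell by smaller amounts, whereas Cdkn1c rose 4.91-fold from a low level and Cdkn1b rose 1.21-fold. Among the D-type cyclins, Ccnd1 fell 1.43-fold, and the values for Ccnd2 and Ccnd3 in the 2 groups overlapped. The share of genes called is high in this comparison. At an adjusted p under 0.05, 73.9% of the 13243 tested genes were called, 37.0% higher and 36.9% lower, so that 8 called genes of 10 is near the background. The median log2 fold change of the 10 genes was −0.31, against 0.00 over all tested genes. In bulk RNA, fewer cells that express a gene and less RNA of it per cell cannot be told apart.

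Cyclin-dependent kinases are active only when bound to a cyclin. The D-type cyclins bind CDK4 and CDK6 in response to growth signals, and these complexes phosphorylate the retinoblastoma protein, which releases E2F transcription factors and opens the way to DNA synthesis. The INK4 inhibitors, encoded by the Cdkn2 genes, bind CDK4 and CDK6 and block their pairing with D-type cyclins. The Cip/Kip inhibitors, encoded by the Cdkn1 genes, bind cyclin-CDK complexes and inhibit above all those that contain CDK2. In fibroblasts, rising levels of Cdkn2a and Cdkn1a products are classical marks of senescence.

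Total counts ran from 23735244 to 25116027 in the controls and from 18631359 to 26645441 in the MAOA-KO libraries. A floor of 3 counts corresponds to 0.11 to 0.156 CPM (counts relative to the library total times its TMM factor, which offsets differences in composition) and covers counting error only. The row named Maoa fell from 49.0 ± 0.921 to 24.9 ± 0.639 CPM (SD, n = 3). That row lists the locus of another gene, so its use as a check of the labels is limited. Of 14 fibroblast markers 12 had a row, 9 of these under 10 CPM in every library, and Lum and Postn had none. Most fibroblast markers were near 0 and several keratins were abundant, which goes against the label CAF. Vim, Col3a1 and Acta2 were present, however, and the epithelial markers Cdh1 and Epcam were low. The marker lists therefore do not settle the cell type. Col1a1 ranged from 0.417 to 2.04 CPM and Pdgfra from 0.469 to 1.56, and Dcn, Fap and Thy1 were at most 0.641, 0.550 and 0.658 CPM. The summed fibroblast markers were at 3496 to 3641 CPM in the controls and 1946 to 2002 in the MAOA-KO libraries. Most of that sum was Vim, which fell from a mean of 3424 to 1788 CPM, a log2 fold change of −0.94 ± 0.03 (SE). Acta2 rose from 30.9 ± 1.07 to 45.9 ± 0.858 CPM, and Col3a1 was at 120.4 ± 5.09 and 129 ± 2.75 CPM (SD, n = 3; edgeR adjusted p = 1.40e-10 and 0.0418). Of 9 epithelial markers 8 had a row. Their sum was 2102 to 2231 CPM in the controls and 1213 to 1285 in the MAOA-KO libraries, with Cdh1 at most 2.83 and Epcam at most 0.451. Krt8 fell from 863 ± 35.4 to 453 ± 16.0 CPM, Krt18 from 926 ± 22.5 to 709.9 ± 20.9, Krt19 from 350.5 ± 10.4 to 86.3 ± 2.83 and Krt7 from 13.6 ± 1.02 to 1.95 ± 0.251, whereas Muc1 rose from 0.701 ± 0.101 to 1.38 ± 0.166 CPM (SD, n = 3). Of 9 leukocyte markers 2 had a row, with a sum of 77.4 to 80.8 CPM in the controls and 67.7 to 75.2 in the MAOA-KO libraries, and Ptprc and Csf1r had none. The 3 endothelial markers with a row summed to at most 0.733 CPM. The part of these marker shifts in the changes below was not tested.

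The sequence before the transcription start is shown for Cdkn1a and Cdkn1b, Cip/Kip genes that moved in opposite directions, and for the neighbours Cdkn2a and Cdkn2b, which both fell. RefSeq's promoter table (GRCm38.p6) held 7 of the 10 genes, with 11 starts in all, and no entry for Cdkn1c, Ccnd1 or Ccnd2. Each window holds the 250 bases before an annotated start and is written 5′ to 3′ on the gene's strand. Capitals mark a GC box (GGGCGG or its reverse complement CCGCCC), a pair of p53 half-site cores (CATGNNNNNNCATG) or a cAMP response element (TGACGTCA).
Cdkn1a, upstream start, chr17:29090729-29090978 (+ strand): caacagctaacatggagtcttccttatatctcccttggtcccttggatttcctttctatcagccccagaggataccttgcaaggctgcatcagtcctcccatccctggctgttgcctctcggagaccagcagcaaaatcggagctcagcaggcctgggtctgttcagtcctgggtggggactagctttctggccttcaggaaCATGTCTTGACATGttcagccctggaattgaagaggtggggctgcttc
Cdkn1a, downstream start, chr17:29093519-29093768 (+ strand): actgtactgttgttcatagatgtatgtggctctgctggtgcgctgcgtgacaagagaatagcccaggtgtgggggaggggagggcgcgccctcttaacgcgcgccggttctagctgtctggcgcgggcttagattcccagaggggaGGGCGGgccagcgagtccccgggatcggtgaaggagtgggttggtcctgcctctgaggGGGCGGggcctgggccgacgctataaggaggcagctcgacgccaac
Cdkn1b, chr6:134920151-134920400 (+ strand): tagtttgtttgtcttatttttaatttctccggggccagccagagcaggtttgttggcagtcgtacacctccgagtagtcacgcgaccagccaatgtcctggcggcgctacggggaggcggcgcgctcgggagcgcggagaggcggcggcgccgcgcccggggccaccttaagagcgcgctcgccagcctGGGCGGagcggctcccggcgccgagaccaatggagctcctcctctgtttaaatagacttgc
Cdkn2a, upstream start, chr4:89294620-89294869 (- strand): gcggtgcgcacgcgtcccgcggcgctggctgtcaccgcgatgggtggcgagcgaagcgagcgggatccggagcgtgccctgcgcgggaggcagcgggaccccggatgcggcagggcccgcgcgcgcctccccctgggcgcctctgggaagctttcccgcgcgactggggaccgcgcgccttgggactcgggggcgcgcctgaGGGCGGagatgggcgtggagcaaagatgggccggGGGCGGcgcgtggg
Cdkn2a, downstream start, chr4:89282193-89282442 (- strand): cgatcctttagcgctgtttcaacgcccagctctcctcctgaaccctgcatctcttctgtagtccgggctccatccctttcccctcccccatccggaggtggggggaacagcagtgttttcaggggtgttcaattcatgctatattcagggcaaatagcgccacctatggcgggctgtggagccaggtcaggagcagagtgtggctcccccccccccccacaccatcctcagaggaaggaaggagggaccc
Cdkn2b, chr4:89311033-89311282 (- strand): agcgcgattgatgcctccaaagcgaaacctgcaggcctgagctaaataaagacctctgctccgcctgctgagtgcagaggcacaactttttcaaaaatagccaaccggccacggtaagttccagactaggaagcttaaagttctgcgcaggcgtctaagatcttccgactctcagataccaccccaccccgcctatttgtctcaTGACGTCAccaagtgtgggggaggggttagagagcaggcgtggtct
The upstream Cdkn1a window holds the paired cores at position −48 from its start, a motif found in 0.49% of all 32851 windows of the table. The Cdkn2b window holds TGACGTCA at position −46, a motif found in 1.55% of all windows. The Cdkn1b window holds a GC box at position −61. Of the 11 windows 7, from 6 of the 7 genes, held a GC box on either strand, against 32.7% of all windows. TATAAA, searched on both strands, was in 0 of the 11 windows and in 12.4% of all windows. No match overlapped another. GC content of the 11 windows ran from 42.8% to 78.4%, and 10 of them lay above the median of 52.4% over all windows. The 2 Cdkn2a starts lie 12427 bases apart, and the 2 Cdkn1a starts 2790 bases apart. A match of letters is a description of the window and does not show that a factor binds there.

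Cdkn1a encodes p21, the inhibitor that p53 induces after DNA damage (ENSMUSG00000023067, chr17:29090976-29100727, + strand, GRCm38.p6). Its level was 34.5, 33.8 and 30.8 CPM in the controls and 12.9, 9.79 and 12.1 CPM in the MAOA-KO libraries. Every MAOA-KO library lay below every control, with a gap larger than the spread within either group. The mean fell from 33.1 ± 1.96 to 11.6 ± 1.60 CPM (SD, n = 3), a log2 fold change of −1.53 ± 0.08 (SE; edgeR quasi-likelihood adjusted p = 2.33e-15). Of all tested genes, 3.53% had a log2 fold change at or below this value. A short gene on the opposite strand, AC167363.2, overlaps Cdkn1a and had 1 to 11 counts per library. The gene-level counts do not say which of the 2 starts shown above was used.

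Cdkn1b encodes p27, which holds cyclin E-CDK2 inactive in resting cells and is removed through the ubiquitin ligase subunit SKP2 (ENSMUSG00000003031, chr6:134920401-134925513, + strand). Its level was 67.4, 67.8 and 68.0 CPM in the controls and 81.9, 83.1 and 80.2 CPM in the MAOA-KO libraries. The groups did not overlap, and the values within each group lay close together. The mean rose from 67.7 ± 0.329 to 81.7 ± 1.44 CPM (SD, n = 3), a log2 fold change of 0.27 ± 0.04 (SE; edgeR adjusted p = 1.91e-06). The change was small. Tested against a minimum change of 1.2-fold it was not called (edgeR glmTreat adjusted p = 0.331), and a correction for GC content and length reduced it to 0.10, still past the threshold.

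Cdkn1c encodes p57, an imprinted inhibitor expressed from the maternal allele and known for its role in embryonic growth (ENSMUSG00000037664, chr7:143458339-143461050, − strand). It was the least abundant of the 10 genes, with 22, 20 and 26 counts in the controls, compared with 115, 127 and 80 in MAOA-KO. These correspond to 0.954, 0.838 and 1.06 CPM in the controls and 5.27, 4.64 and 4.17 CPM in the MAOA-KO libraries. All MAOA-KO libraries lay above all controls, and all values lay above the floor of 3 counts. The mean rose from 0.952 ± 0.114 to 4.69 ± 0.551 CPM (SD, n = 3), a log2 fold change of 2.30 ± 0.17 (SE; edgeR adjusted p = 3.85e-12). Of all tested genes, 1.05% had a log2 fold change at or above this value. On the log2(FPKM + 1) scale the difference was 1.25, since that pseudocount exceeds the control level. An antisense gene, Gm44732, overlaps Cdkn1c, and without a stated strand setting their reads cannot be told apart.

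Cdkn2a was the most abundant of the inhibitor genes (ENSMUSG00000044303, chr4:89274471-89294653, − strand). From separate first exons it encodes p16Ink4a, an INK4 inhibitor, and p19Arf, which stabilises p53 by binding MDM2. The p19Arf first exon is the upstream one, and the 2 Cdkn2a windows above precede these starts. Its level was 401, 392 and 389.9 CPM in the controls and 294, 268 and 270.1 CPM in the MAOA-KO libraries. The groups were far apart, and MAOA-KO replicate 1 was the highest of its group. The mean fell from 394 ± 5.69 to 277 ± 14.2 CPM (SD, n = 3), a log2 fold change of −0.51 ± 0.04 (SE; edgeR adjusted p = 9.54e-12). The row sums reads of both transcripts, so the change cannot be assigned to p16Ink4a or p19Arf.

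Cdkn2b encodes p15, an INK4 inhibitor induced by TGF-β, and lies 11645 bases from Cdkn2a (ENSMUSG00000073802, chr4:89306299-89311039, − strand). Its level was 74.0, 75.6 and 71.5 CPM in the controls and 68.6, 58.7 and 60.9 CPM in the MAOA-KO libraries. MAOA-KO replicate 1 came within a few CPM of the lowest control, but the groups did not overlap. The mean fell from 73.7 ± 2.05 to 62.7 ± 5.21 CPM (SD, n = 3), a log2 fold change of −0.23 ± 0.05 (SE; edgeR adjusted p = 1.93e-04). It was not called against a minimum change of 1.2-fold (glmTreat adjusted p = 0.667), and it was −0.11 with the GC and length correction and −0.15 when scaled by library totals only, past the threshold in both.

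Cdkn2c encodes p18, another INK4 inhibitor (ENSMUSG00000028551, chr4:109660876-109667189, − strand). Its level was 12.8, 13.0 and 11.5 CPM in the controls and 10.4, 8.91 and 9.59 CPM in the MAOA-KO libraries. The groups did not overlap, although control replicate 3 and MAOA-KO replicate 1 were near each other. The mean fell from 12.4 ± 0.818 to 9.62 ± 0.719 CPM (SD, n = 3), a log2 fold change of −0.38 ± 0.08 (SE; edgeR adjusted p = 2.92e-04). Against a minimum change of 1.2-fold it was not called (glmTreat adjusted p = 0.0638), and on the log2(FPKM + 1) scale it was −0.23.

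Cdkn2d encodes p19Ink4d, the INK4 protein that is distinct from p19Arf despite its name (ENSMUSG00000096472, chr9:21288410-21291407, − strand). Its level was 13.0, 12.9 and 12.2 CPM in the controls and 9.44, 7.78 and 7.92 CPM in the MAOA-KO libraries. All MAOA-KO libraries were lower than all controls. The mean fell from 12.7 ± 0.399 to 8.38 ± 0.918 CPM (SD, n = 3), a log2 fold change of −0.60 ± 0.09 (SE; edgeR adjusted p = 8.20e-07). With it, all 4 INK4 genes passed the test as lower. Of the 3 Cip/Kip genes 1 passed it as lower and 2 as higher. Of all tested genes 36.9% passed it as lower and 37.0% as higher. Cdkn1b, Cdkn2b and Cdkn2c were not called against a minimum change of 1.2-fold, so these counts only describe a few genes.

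Ccnd1 encodes cyclin D1, the D-type cyclin most directly induced by growth factor signalling (ENSMUSG00000070348, chr7:144929931-144939925, − strand). Its level was 343, 344 and 343 CPM in the controls and 252, 237 and 231 CPM in the MAOA-KO libraries. The controls were nearly identical, and every MAOA-KO library lay below them by far more than the spread within its group. The mean fell from 343 ± 0.628 to 240.1 ± 10.8 CPM (SD, n = 3), a log2 fold change of −0.51 ± 0.04 (SE; edgeR adjusted p = 4.79e-12). The end of the gene overlaps LTO1 on the opposite strand, which had 285 to 335 counts in the controls and 361 to 471 in the MAOA-KO libraries, against 4440 to 8362 for Ccnd1.

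Ccnd2 encodes cyclin D2 (ENSMUSG00000000184, chr6:127125162-127152193, − strand). Its level was 380.3, 385 and 395 CPM in the controls and 389, 386 and 385 CPM in the MAOA-KO libraries. The groups overlapped, and the MAOA-KO values fell inside the control range. The log2 fold change was 0.00 ± 0.03 (SE), with a 95% interval from −0.07 to 0.07 (edgeR adjusted p = 0.984). The result depended on the scaling. It was 0.09 when scaled by library totals only (adjusted p = 0.0279) and −0.09 with the GC and length correction (adjusted p = 0.00159), so that the direction turned while the size stayed small.

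Ccnd3 encodes cyclin D3 (ENSMUSG00000034165, chr17:47505051-47599691, + strand). Its level was 55.2, 48.9 and 48.7 CPM in the controls and 54.2, 49.6 and 51.8 CPM in the MAOA-KO libraries. Control replicate 1 was the highest library of all, and the groups overlapped. The log2 fold change was 0.03 ± 0.05 (SE), with a 95% interval from −0.08 to 0.13 (edgeR adjusted p = 0.671). With the GC and length correction it was 0.15 (adjusted p = 9.12e-04). Ccnd3 overlaps Bysl on the opposite strand, which had 995 to 1008 counts in the controls and 489 to 720 in the MAOA-KO libraries, and the strand setting of the counts is not given in the sources used here.

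Taking each gene alone, the exact two-sided permutation test over the libraries gave p = 0.1 for each of the 8 called genes, the smallest value that 3 against 3 allows. It gave 0.9 for Ccnd2 and 0.8 for Ccnd3. The 2 groups had no overlap in CPM for 8 of 10 genes, against 75.1% of all tested genes. MAOA-KO replicate 1 was the highest of the MAOA-KO libraries for 9 of the 10 genes, Cdkn1b being the exception. The same share over all tested genes was not counted, so it is open whether this is particular to the 10 genes. None of the 8 calls was lost when any single library was left out. In the test against a minimum change of 1.2-fold, which called 45.9% of all tested genes, 1 of the 10 genes was higher and 4 were lower.

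**Figure D1:**
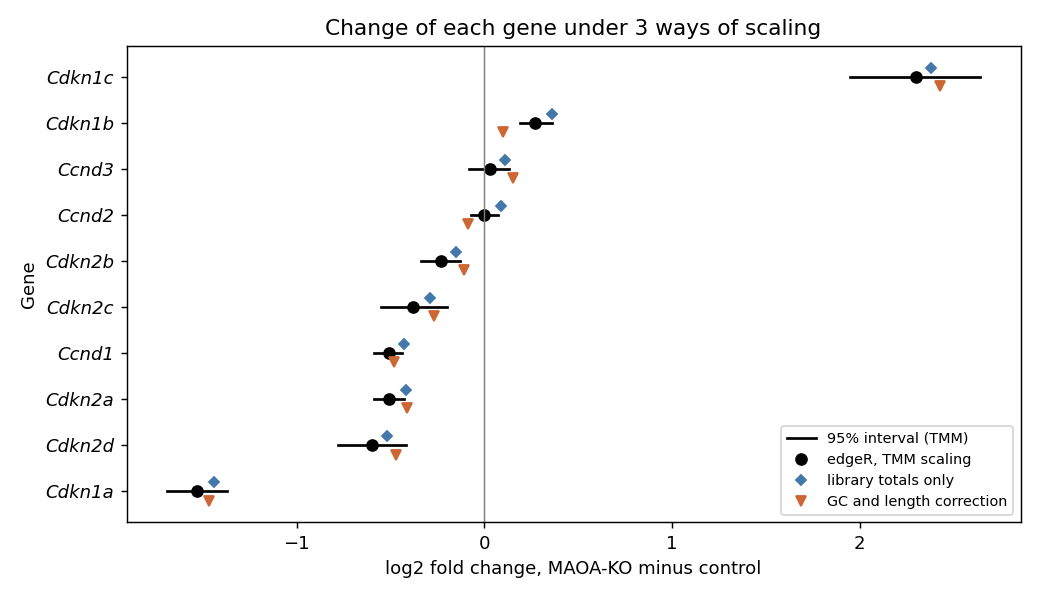
Change of the 10 genes, with the log2 fold change of MAOA-KO over control on the horizontal axis and 1 gene per line. Black points with lines are the edgeR estimate with TMM scaling and its 95% interval, blue diamonds use library totals only and orange triangles the GC and length correction. Cdkn1c at 2.30 and Cdkn1a at −1.53 lie far from the rest, and Ccnd2 changes sign between the scalings.

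Levels of different genes were compared in FPKM (counts scaled by the length of 1 transcript and by the library total), as deposited by the authors. In the controls the order was Cdkn2a at 427 ± 6.41, Ccnd1 at 88.9 ± 0.0556, Ccnd2 at 59.3 ± 1.21, Cdkn2b at 51.4 ± 1.32 and Cdkn1a at 34.8 ± 2.03 FPKM (SD, n = 3). Below them came Ccnd3 at 23.4 ± 1.71, Cdkn1b at 14.4 ± 0.0745, Cdkn2d at 8.66 ± 0.261, Cdkn2c at 4.89 ± 0.313 and Cdkn1c at 0.486 ± 0.0590 FPKM. In the MAOA-KO libraries Cdkn2a stayed first at 319 ± 17.4 FPKM, ahead of Ccnd1 at 66.1 ± 3.14, Ccnd2 at 63.0 ± 0.543 and Cdkn2b at 46.5 ± 4.02 FPKM. Next were Ccnd3 at 25.3 ± 1.19, Cdkn1b at 18.5 ± 0.310 and Cdkn1a at 12.9 ± 1.83 FPKM, with Cdkn2d at 6.07 ± 0.685, Cdkn2c at 4.01 ± 0.313 and Cdkn1c at 2.54 ± 0.305 FPKM last. No neighbouring genes in either order overlapped across the 3 libraries. In MAOA-KO, however, the lowest Ccnd1 value (63.7 FPKM) was barely above the highest Ccnd2 value (63.6 FPKM). Cdkn1a stood above Ccnd3 and Cdkn1b in the controls and below both in the MAOA-KO libraries. Its place rests on the length used, because the deposited FPKM took 922 bases for Cdkn1a and 2113 for Ccnd3, where the longest transcripts have 2080 and 3858. With the longest transcripts, Cdkn1a and Cdkn1b overlapped in the controls (15.9 ± 0.942 and 14.9 ± 0.0722 on the same kind of scale).

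**Figure D2:**
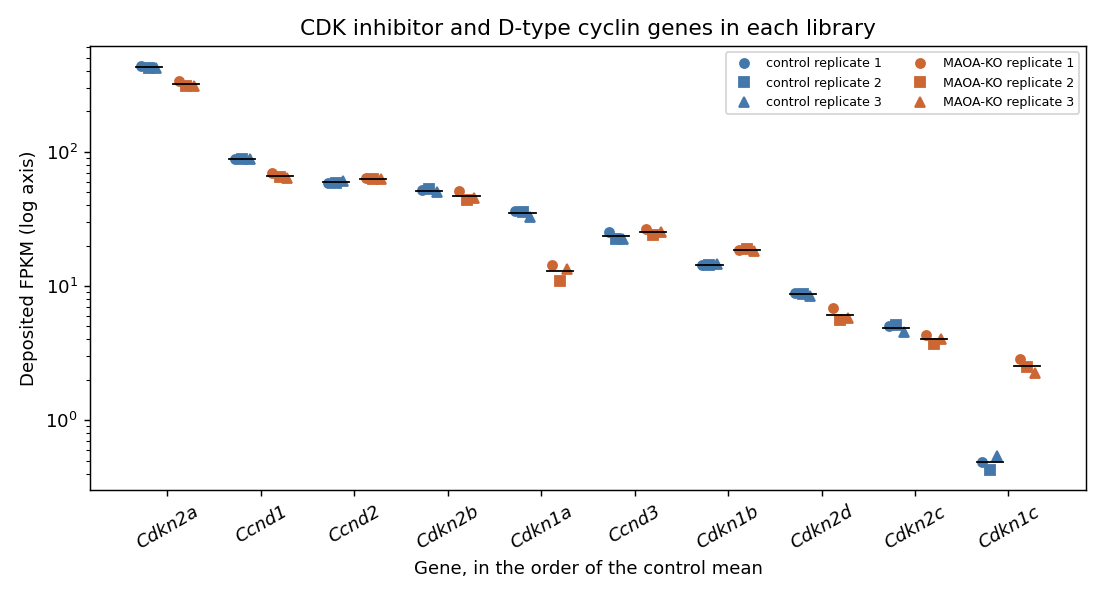
Deposited FPKM of the 10 genes on a log axis, in the order of the control mean. Each point is 1 library, with controls in blue and MAOA-KO in orange, marker shapes give the replicate number and short lines the group means. Cdkn1a falls from 34.8 to 12.9 FPKM and Cdkn1c rises from 0.486 to 2.54 FPKM, while Cdkn2a remains the highest in both groups.

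The make-up of the D-type cyclin pool differed between the groups. Ccnd1 made up 51.5%, 52.2% and 51.7% of the summed FPKM of the 3 cyclins in the controls, compared with 43.6%, 42.8% and 42.0% in MAOA-KO. Ccnd2 made up 33.8%, 34.6% and 35.3% in the controls, compared with 39.8%, 41.3% and 41.3% in MAOA-KO. Neither share overlapped between groups. The share of Ccnd3 was 13.6% ± 0.926 in the controls and 16.4% ± 0.418 in the MAOA-KO libraries (SD, n = 3). The summed FPKM of the 3 cyclins was 172 ± 1.30 and 154 ± 4.67 in that order. These sums, like those of the inhibitors below, carry no TMM factor. With library totals only, the median log2 fold change of all tested genes was 0.09. Ccnd2, at a mean of 387 CPM in both groups, stood at 59.3 FPKM in the controls and 63.0 in MAOA-KO. The ratio of Ccnd1 to Ccnd2 was 1.52, 1.51 and 1.47 in the controls, compared with 1.10, 1.04 and 1.02 in MAOA-KO. The ratio's direction does not depend on library scaling, since both genes come from the same library.

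Among the 7 inhibitors, Cdkn2a made up 78.8% ± 0.452 of the summed FPKM in the controls and 77.9% ± 0.423 in the MAOA-KO libraries (SD, n = 3). Cdkn1a made up 6.42% ± 0.282 and 3.15% ± 0.327, and Cdkn1b 2.66% ± 0.0573 and 4.52% ± 0.263. The FPKM ratio of Cdkn1a to Cdkn1b was 2.53, 2.46 and 2.24 in the controls, compared with 0.776, 0.582 and 0.744 in MAOA-KO. The order of these Cip/Kip genes was opposite in the 2 groups on the deposited scale. It was not with the union of exons as length, where Cdkn1a lay below Cdkn1b in both groups (9.31 ± 0.552 against 14.9 ± 0.0722 in the controls and 3.26 ± 0.451 against 18.0 ± 0.316 in MAOA-KO). Cdkn2b made up 9.49% ± 0.203 and 11.3% ± 0.313, and the ratio of Cdkn2a to its neighbour Cdkn2b was 8.31 ± 0.217 and 6.88 ± 0.224. Cdkn1c made up 0.0897% ± 0.0116 and 0.619% ± 0.0477. The summed FPKM of the inhibitors was 542 ± 8.99 and 409.9 ± 24.1, that of the INK4 genes 492 ± 7.27 and 376 ± 22.3, and that of the Cip/Kip genes 49.7 ± 1.91 and 34.0 ± 1.86. That of Cdk4 and Cdk6, whose products the INK4 inhibitors bind, was 183 ± 4.65 and 176 ± 2.96.

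**Figure D3:**
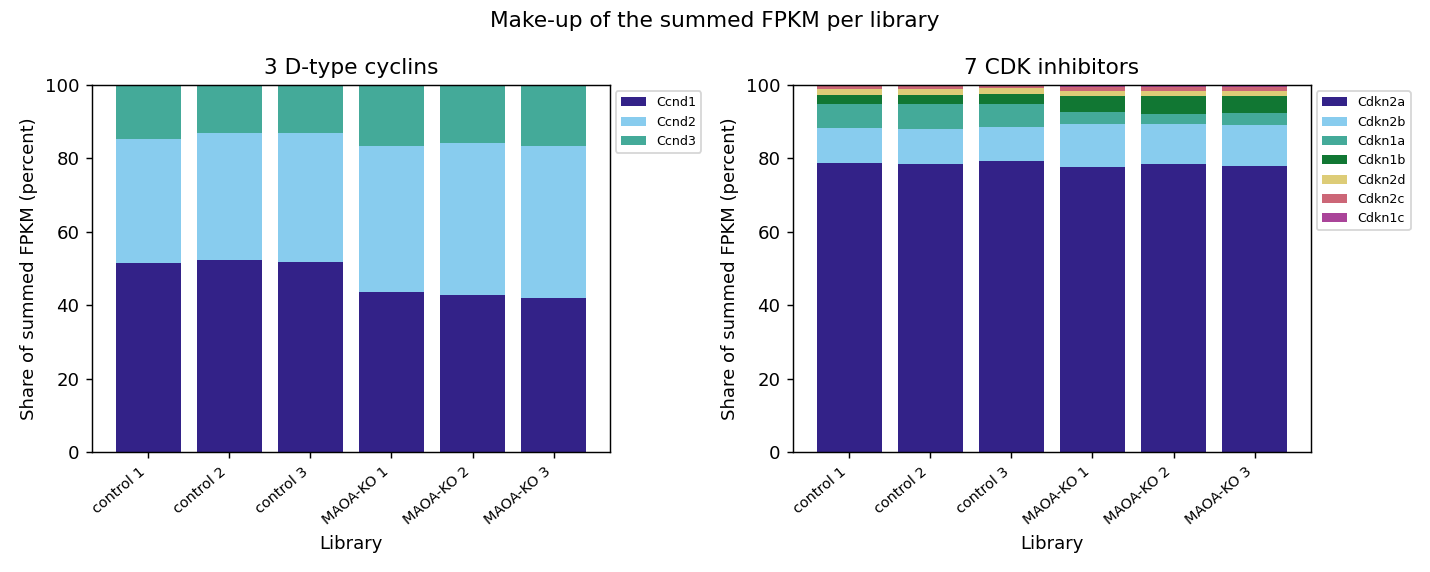
Share of each gene in the summed FPKM of the 3 D-type cyclins (left) and of the 7 CDK inhibitors (right), in percent, with 1 bar per library. Ccnd1 goes from 51.8% to 42.8% of the cyclins, and Cdkn2a makes up 77.6% to 79.3% of the inhibitors in each library.

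The partners, targets and regulators of these genes were counted in lists, 11 in all with both sets of genomic neighbours and with 147 distinct tested genes. Of the 147, 35 were higher and 82 lower, beside 4900 higher and 4881 lower among the 13243 tested genes. With scaling by library totals only, 48 were higher and 71 lower, beside 5759 and 4044 of all tested genes. Of 18 CDK catalytic subunits, 2 were higher, 10 lower and 6 not called, with a median log2 fold change of −0.10. Cdk1, the mitotic kinase, fell by 1.96 on the log2 scale and Cdk18 by 0.57, while Cdk5 rose by 0.58 and Cdk19 by 0.43. The direct partners of the D-type cyclins changed little, with −0.14 ± 0.04 for Cdk4 and −0.17 ± 0.04 for Cdk6 (SE; edgeR adjusted p = 0.00115 and 2.82e-04), and Cdk2 stood at −0.30 ± 0.05.

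Of 18 other cyclins, 7 were higher and 8 lower, with a median of 0.06. The mitotic cyclins Ccnb2 (−3.60), Ccnb1 (−2.82) and Ccna2 (−2.75) and the ubiquitin ligase subunit Ccnf (−2.32) had the lowest p-values. The E-type cyclins, partners of CDK2, were at −1.07 ± 0.11 for Ccne1 and −1.82 ± 0.09 for Ccne2 (SE). Of 9 genes for the CDK-activating kinase, phosphatases and inhibitory kinases, 0 were higher and 8 lower, with a median of −0.82. Among them were the activating phosphatases Cdc25b (−2.06) and Cdc25c (−2.87), the inhibitory kinase Pkmyt1 (−1.29) and the phosphatase Cdkn3 (−3.17), which acts on CDKs despite a symbol like those of the inhibitors.

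Downstream, of 18 genes of the RB family, E2F and the DREAM complex, 2 were higher and 9 lower, with a median of −0.17. The pocket protein genes Rb1 and Rbl2 were the 2 that rose, by 0.28 ± 0.08 and 0.47 ± 0.05 (SE). Rbl1, a pocket protein gene as well, fell by 0.52. For Rb1 the CPM values of the groups overlapped. The atypical repressors E2f7 (−2.97) and E2f8 (−1.97), the DREAM-linked activator Mybl2 (−2.62) and E2f4 (−0.76) had the lowest p-values. All 16 E2F-driven S phase targets were lower, with a median of −1.07, including Rrm2 (−2.80), Tk1 (−2.22), Mcm5 (−2.19) and Ccna2, which with the E-type cyclins is on both lists. The S phase targets and the mitotic cyclins were lower in the same libraries in which 5 of 7 CDK inhibitor genes were lower. Of all tested genes, 36.9% were called lower.

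**Figure D4:**
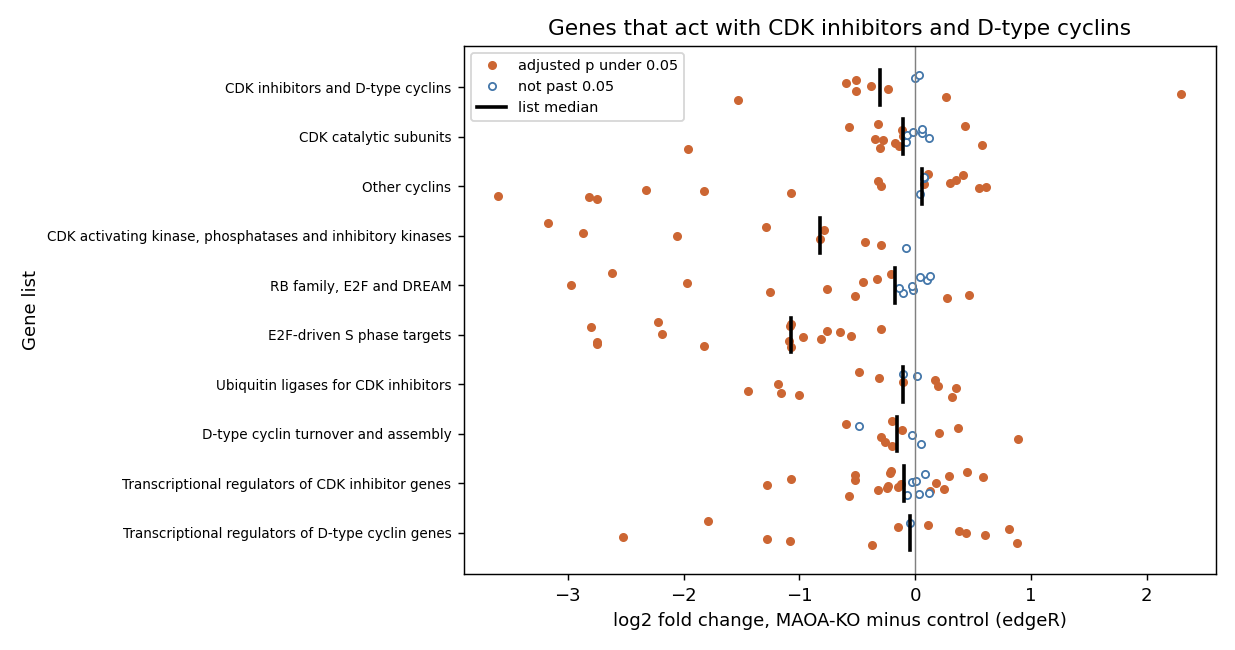
Log2 fold change of MAOA-KO over control (edgeR, horizontal axis) for the 10 genes and for lists of genes that act with them or on them. Each point is 1 tested gene, filled where the adjusted p is under 0.05 and open where it is not, and vertical bars are list medians. The S phase targets lie to the left of 0 throughout, with a median of −1.07, and the inhibitors and D-type cyclins spread on both sides.

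Genes that act on the inhibitor and cyclin proteins were called about as often as all tested genes (73.9%). Of 13 genes of the ubiquitin ligases that remove CDK inhibitors, 4 were higher and 7 lower, with a median of −0.10. Skp2, whose product recognises p27, fell by 1.00 on the log2 scale, its cofactor Cks1b by 1.16, the related Cks2 by 1.44, and Dtl, which recognises p21 at PCNA, by 1.18. Of 12 genes for turnover and assembly of D-type cyclins, 3 were higher and 6 lower, with a median of −0.15. These include the chaperone genes Hsp90ab1 (−0.60) and Cdc37 (−0.20), which help CDK4 to fold, the kinase gene Gsk3a (−0.29) and Cryab (0.89), a cofactor in cyclin D1 degradation. Protein levels were not measured.

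Of 24 transcriptional regulators of CDK inhibitor genes, 6 were higher and 12 lower, with a median of −0.09. Trp53, whose product activates Cdkn1a, fell by 0.57 on the log2 scale. Mdm2, another p53 target, stood at −0.07 ± 0.04 (SE; edgeR adjusted p = 0.135). The part of p53 in the change of Cdkn1a was not tested. Myc and Id1, repressors of inhibitor genes, fell by 1.28 and 1.07. Bmi1, a Polycomb repressor of the Cdkn2a locus, rose by 0.59. The other Polycomb genes of the list went both ways. Rnf2 (0.45) and Cbx7 (0.29) rose, Ezh2 (−0.52) and Eed (−0.22) fell, and Suz12 (0.09) was not called. Whether these regulators acted on the inhibitor genes was not tested. Of 13 regulators of D-type cyclin genes, 6 were higher and 6 lower, with a median of −0.04. Egr1 (−2.52), Fosl1 (−1.08) and Foxm1 (−1.79) were among the lower ones. The 6 higher ones were Fos (0.88), Stat5a (0.81), Ctnnb1 (0.60), Tcf7l2 (0.44), Stat3 (0.38) and Rela (0.11).

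The genes around Cdkn1c and around Cdkn2a were compared with them. Cdkn1c lies in an imprinted domain on chromosome 7. Slc22a18, which starts 12.7 kb from Cdkn1c, was at 0.475 ± 0.0750 CPM in the controls and 2.04 ± 0.0927 in the MAOA-KO libraries (SD, n = 3), a log2 fold change of 2.08 ± 0.23 (SE; edgeR adjusted p = 1.05e-08). H19, the maternally expressed non-coding RNA, starts at −883 kb from Cdkn1c. It was at 0.182 ± 0.0240 and 1.71 ± 0.194 CPM, a log2 fold change of 3.20 ± 0.30 (edgeR adjusted p = 5.52e-10). Its control counts of 4, 5 and 4 lay near the floor of 3 counts, against 33, 52 and 33 in MAOA-KO. Slc22a18 had 9, 12 and 13 counts in the controls, against 46, 53 and 40 in MAOA-KO. H19 and Slc22a18 passed the filter on low counts only through the MAOA-KO libraries, so their p-values are not independent evidence of a rise. The listed neighbours did not move as a whole. Phlda2 (−0.65 ± 0.13), Nap1l4 (−0.47 ± 0.04) and Tssc4 (−0.56 ± 0.07) fell, Cd81 rose by 0.41 ± 0.04, and Kcnq1ot1, the non-coding RNA that silences the domain on the paternal allele, stood at 0.12 ± 0.10 (SE; edgeR adjusted p = 0.259). Kcnq1 was too low to be tested, and Ascl2 and Igf2 had no row. Ccnd1 starts 1479 kb from Cdkn1c on the same chromosome and moved the other way.

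Around the INK4 locus on chromosome 4, Mtap, which starts 158 kb from Cdkn2a, fell by 0.30 ± 0.04 on the log2 scale (SE), and Focad fell by 0.40 ± 0.05. Klhl9 rose by 0.39 ± 0.04, and Dmrta1 rose by 1.05 ± 0.20 from 0.925 ± 0.0719 to 1.92 ± 0.270 CPM (SD, n = 3). Hacd4 stood at 0.20 ± 0.20 and was not called, and Elavl2 had no row. Reads were present in every library for Cdkn2a, Cdkn2b and Mtap, genes whose human counterparts are often deleted together in pancreatic tumours.

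**Figure D5:**
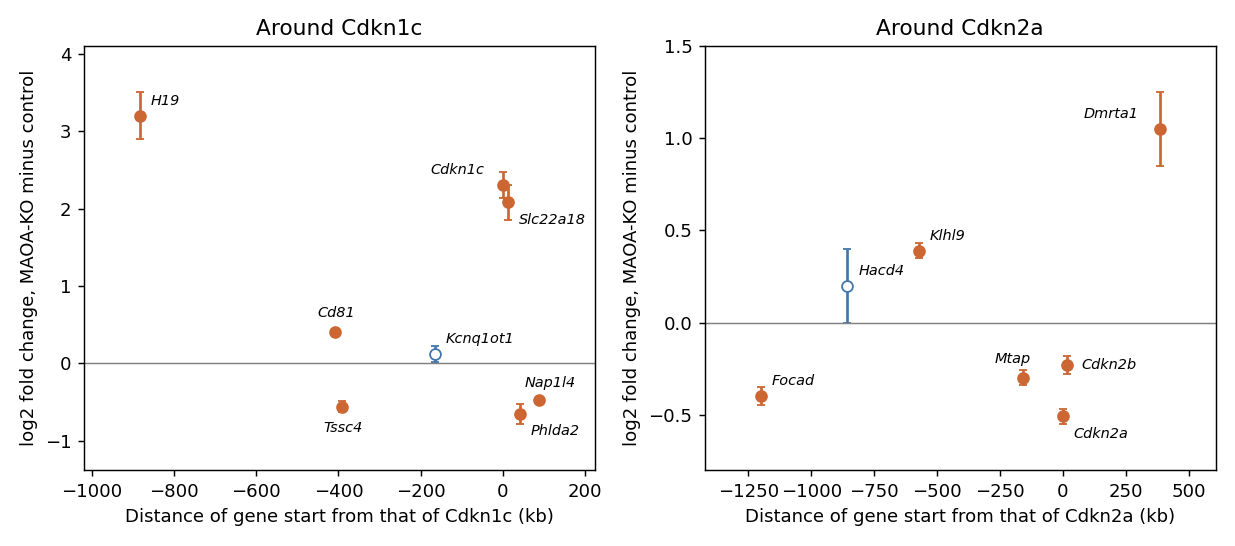
Log2 fold change of MAOA-KO over control (edgeR, vertical axis, bars are SE) against the distance of each gene's start from that of Cdkn1c (left) or Cdkn2a (right) in kb. Filled orange points have an adjusted p under 0.05 and open blue points do not. Slc22a18, at 12.7 kb, is at 2.08 beside Cdkn1c at 2.30, while Phlda2, at 42.1 kb, is at −0.65. Slc22a18 and H19 passed the filter on low counts only through the MAOA-KO libraries.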

How the data were processed

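RNA from 6 libraries, 3 control and 3 MAOA-KO, was analysed from 1 table. It holds whole-number read counts per gene and FPKM, both deposited by the authors, together with the authors' log2 fold change, p-value and adjusted p-value, each also as −log10, as the authors deposited them. Per the file headers the build is GRCm38.p6, and the submitters' processing notes name mm10. Aligner, counter and strand setting: not given in the sources used here. A protocol among the labels describes small RNA enrichment, whereas the table lists genes. Every row has at least 10 counts in all. The deposited FPKM follow from the counts and 1 length per gene within a relative deviation of 2.9e-05. In 4 of 15836 rows, the row named Maoa among them, the coordinates belong to another gene of GENCODE M21, so whose counts these are is not established. All 10 members had their own locus.

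Counts were tested with edgeR 4.0.16 in R 4.3.3 (filterByExpr, TMM factors of 0.968 to 0.972 in the controls and 1.03 in the MAOA-KO libraries, robust quasi-likelihood fit with group as its term, Benjamini-Hochberg adjustment over 13243 genes, threshold 0.05). SEs were derived from the log2 fold change and the F statistic. The script was tested on simulated data. Alternatives used DESeq2 1.42.0, limma 3.58.1 on log2(FPKM + 0.1) and log2(FPKM + 1), other scalings and filters, a replicate block, a test against 1.2-fold, each library left out and, chosen after seeing the data, offsets for GC content and length. The members and the gene lists were chosen with earlier results of these data known. Of each list the up to 4 called genes of lowest p are named, of the neighbour lists all genes with a row, and of the markers a fixed few. Cdk2, Cdk4, Cdk6, the E-type cyclins, the RB family, Mdm2, Dcn, Fap, Thy1 and Muc1 were named in addition, after their values were seen. So were Rnf2, Cbx7, Ezh2, Eed, Suz12 and the 6 higher regulators of D-type cyclin genes.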

Additional observations from a re-analysis of the deposited data

How the results depend on the processing

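Over 17 alternatives, Cdkn1a, Cdkn1c, Cdkn2a, Cdkn2d and Ccnd1 kept their direction and stayed called. Cdkn1b, Cdkn2b and Cdkn2c kept their direction and lost the call only in the test against 1.2-fold, with log2 fold changes of 0.27, −0.23 and −0.38 and adjusted p of 0.331, 0.667 and 0.0638. In that test 6079 genes (45.9%) were called, 3120 higher and 2959 lower, against 9781 in the test against no change, with 1 of the 10 genes higher, and 21 pathway genes higher and 54 lower, as its construction implies. Ccnd2 was −7.66e-04 with DESeq2's size factors in the edgeR fit, −0.01 without a filter and −0.01 with DESeq2, each far from the threshold. It was 0.09 with library totals only (adjusted p = 0.0279) and 0.09 with limma on log2(FPKM + 0.1) and on log2(FPKM + 1) (adjusted p = 0.0326 and 0.0322), settings without TMM factors that move the median of all genes to 0.09, 0.09 and 0.07. With the GC and length correction Ccnd2 was −0.09 and Ccnd3 0.15, and the same values of −0.09 and 0.15 came with the replicate block added (adjusted p = 5.20e-05 and 2.01e-04). Kcnq1ot1 was −0.04 in both of these. The cause of these shifts was not tested. With single libraries left out, Ccnd2 ran from −0.02 to 0.01 (−0.00324 without MAOA-KO replicate 1) and Ccnd3 from −0.01 to 0.08 (−0.00499 without control replicate 2), and 9357 to 9772 genes were called. DESeq2 called 9111 genes.

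The share of Ccnd1 among D-type cyclins was 43.9%, 60.8% and 55.2% in the controls, and in MAOA-KO 35.4%, 52.0% and 46.2%, with CPM without length, the union of exons and the longest transcript. That of Ccnd2 was 49.5% and 36.8% in the controls (CPM and longest transcript) and 57.0%, 42.0% and 44.1% in the MAOA-KO libraries. That of Ccnd3 was 6.52%, 4.85% and 7.95%, and 7.64%, 6.03% and 9.69%. Cdkn2a made up 66.3% and 81.8% of the inhibitors in the controls (CPM and longest transcript) and 60.8%, 75.3% and 79.3% in the MAOA-KO libraries. In each of these scales Ccnd1's share was lower in the MAOA-KO libraries.

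The replicate numbers were not taken to pair the samples, which is uncertain. Deviations of same-numbered samples correlated at 0.0880, 0.0576 and 0.0346 over all tested genes, each under 0.1, and at 0.550, 0.213 and 0.112 over genes with a mean of at least 500 counts, where control replicate 3 correlated best with MAOA-KO replicate 2 (0.439). With the replicate block 10205 genes were called, 5099 higher and 5106 lower, and none of the 10 genes changed its call. For 59 other named genes, 985 of 1001 repeats kept direction and call. Cdkn1c, H19 and Slc22a18 rest on few counts, which limits their precision. Groups of 3 libraries limit every spread given here.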
